A study of Mus musculus with 8 samples.

Results

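The genes described here carry the names Spata (spermatogenesis associated) or Tex (testis expressed) followed by a number. They were chosen by name alone: every non-control probe whose gene name in the array files had this form, apart from 2 names that the rule leaves out. This gave 46 probes of 30 genes, 15 Spata and 15 Tex, out of 41174 probes and 27962 gene names on the array. RNA was extracted from whole testicular cells of male mice, so the RNA of germ cells was measured in one pool with that of the somatic cells of the testis. The 4 mutant samples were VRK1-/- and the 4 wild-type samples were VRK1+/+, each described as a biological replicate and hybridised to its own single-colour Agilent array. Vrk1 encodes a nuclear protein kinase. The labels name no age, strain or litter and do not say how the Vrk1 allele was made or which animals the samples came from, so the p-values measure the spread between these samples. The question was which testis transcripts differ when Vrk1 is mutant.

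Spata and Tex are naming families and not a pathway. They gather genes found through their RNA in the testis, and their products do unrelated work. Some act in meiosis and in the control of transposons in germ cells, some build the sperm head, flagellum or mitochondrial sheath in spermatids, and others are housekeeping or signalling proteins present in many tissues. RNA of the second kind is made mainly by germ cells that have entered or completed meiosis.

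Of the 30 genes, 29 had a probe that could be tested, meaning that 4 or more of the 8 arrays had it well above background, and 44 of the 46 probes passed that filter. Spata5l1, a gene for an AAA-type ATPase, was the gene left out, since its probe was well above background on 1 mutant and 0 wild-type arrays. Levels are log2 signals relative to the array's own 75th percentile, so a level of 0 is a signal equal to that percentile. Probes differ in brightness for the same amount of RNA, so levels of different probes are not compared.

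The whole series set the frame for these values. The 75th percentile of the raw signal was 928 to 1124 on mutant and 679.7 to 790.0 on wild-type arrays, and features well above background made up 83.3% to 86.5% on mutant and 73.2% to 77.5% on wild-type arrays. Vrk1 itself averaged -2.97 on the mutant and -0.71 on the wild-type arrays with its brighter probe, a 4.79-fold lower signal (limma adjusted p = 1.50e-04). Vrk1 signal was still detected in the mutant, where both of its probes were well above background on all 4 arrays. The mutant arrays lay on 1 slide and the wild-type arrays on another, and in every difference below the slide cannot be told apart from the genotype. Among cell type markers, 12 of 14 tested Sertoli genes were called higher in the mutant (summed scaled signal 152.3 to 230.1 in the mutant, 71.9 to 107.7 in wild type). By contrast, 8 of 10 late spermatocyte genes were called lower (368.8 to 483.3 in the mutant, 544.7 to 590.7 in wild type). The other germ cell lists differed from this: 5 of 10 round spermatid and 1 of 12 elongating spermatid genes were called lower. For undifferentiated spermatogonia, 7 of 11 genes were called higher. Epididymal transcripts were uneven: the 4 tested of 8 markers on the array summed to 24.4, 1.30, 0.82 and 16.7 on mutant arrays 1 to 4, against 0.27 to 0.60 in wild type.

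**Figure D1:**
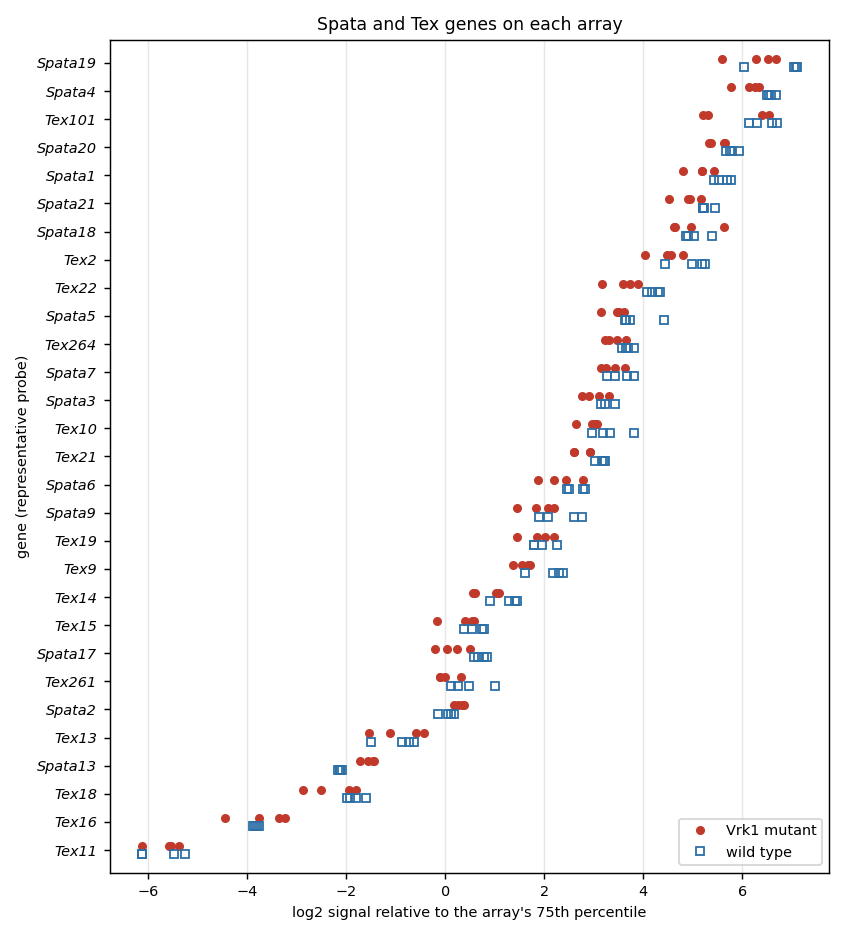
Scaled log2 signal, 0 being the 75th percentile of the array (horizontal axis), of the representative probe of each of the 29 tested genes, with 1 point for each of 4 mutant (filled circles) and 4 wild-type arrays (open squares). Genes are ordered by mean signal. Spata13 is the gene whose mutant points all lie above the wild-type points.

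The probes behind the called differences and the genes whose probes disagreed are shown here, since what each 60-base probe detects decides which value the gene receives. Positions are in build mm7 as printed in the array files, without a new alignment, and the annotation of exons and introns at these positions was not used here. Sequences are the array's own, given 5′ to 3′ in lower case. For Spata17, 3 probes lie on the minus strand of chromosome 1, at 186665804 to 186665863 (A_52_P376618), 186623241 to 186623300 (A_51_P360040) and 186714438 to 186714497 (A_52_P491652), the last designed on a cDNA clone from whole embryos. For Tex10, 3 probes lie on the minus strand of chromosome 4, at 48444776 to 48444835 (A_51_P462746), 48482535 to 48482594 (A_52_P221696) and 48483290 to 48483349 (A_51_P102090, also from an embryo clone). The probes of Spata4 lie on the plus strand of chromosome 8, at 53378881 to 53378940 and 53378901 to 53378960, and capitals mark the 40 bases that they share. Spata13 (chromosome 14, 55631777 to 55631836, plus strand) and Tex22 (chr12_random, 3101115 to 3101174, plus strand) had 1 probe each.
Spata17 A_52_P376618: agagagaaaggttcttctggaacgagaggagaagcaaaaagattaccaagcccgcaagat
Spata17 A_51_P360040: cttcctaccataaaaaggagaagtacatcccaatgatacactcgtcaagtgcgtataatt
Spata17 A_52_P491652: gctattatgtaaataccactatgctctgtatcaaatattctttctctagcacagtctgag
Tex10 A_51_P462746: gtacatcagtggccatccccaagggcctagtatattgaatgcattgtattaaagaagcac
Tex10 A_52_P221696: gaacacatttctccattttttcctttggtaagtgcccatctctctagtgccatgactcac
Tex10 A_51_P102090: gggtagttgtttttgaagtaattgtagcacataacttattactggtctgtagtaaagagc
Spata4 A_51_P267780: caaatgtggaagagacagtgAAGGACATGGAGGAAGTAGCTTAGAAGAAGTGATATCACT
Spata4 A_52_P254825: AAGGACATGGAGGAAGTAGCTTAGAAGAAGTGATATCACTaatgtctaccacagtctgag
Spata13 A_52_P305279: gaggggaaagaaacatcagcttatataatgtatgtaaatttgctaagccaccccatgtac
Tex22 A_51_P282286: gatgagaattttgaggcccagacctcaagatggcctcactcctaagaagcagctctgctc

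Of the 29 tested genes, 5 fell in the mutant (Tex22, Spata17, Tex9, Spata1 and Spata4), 1 rose (Spata13) and 23 did not pass the test at a limma adjusted p under 0.05. Over all 23349 tested genes, 13.2% were called lower and 22.3% higher. The 5 lower genes are 17.2% of the members, near the share over all genes, while the 1 higher gene is 3.45%. Among genes of like brightness, the lower share over all genes was higher, as given below. The differences were small. Their median was -0.39 on the log2 scale, against 0.03 over all tested genes, and they ran from -0.62 to 0.58. The sign was negative for 24 of the 29 genes. Every mutant array lay below every wild-type array for 8 genes, 27.6% of the members, where this held for 15.4% of all tested genes. The reverse held for 1 gene, against 21.9% of all tested genes. The members were brighter, with a median log2 signal of 2.96 against -1.34 over all tested genes. These shares and the count of negative signs were not matched for brightness.

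These counts moved with the scaling and with single arrays. With scaling to the array median, which moved the median difference of all tested genes to -0.18, 18 members were called lower and 1 higher (28.7% and 14.1% of all genes), and with quantile normalization 1 lower and 1 higher (10.3% and 14.8%). After normexp background correction 1 was lower and 0 higher (11.4% and 7.97%). Leaving out mutant replicate 3, wild-type replicate 2 or wild-type replicate 3 left 0 lower members by limma, and the share of all genes called lower was then 6.77%, 6.99% and 6.85%. Without mutant replicate 1 or 4, 2 and 1 members were lower (7.10% and 7.67% of all genes), and without mutant replicate 2 there were 5 (13.1%). Without wild-type replicate 1 there were 2 (12.9%), and without wild-type replicate 4 there were 8 (15.9%). Without mutant replicates 1 and 4, where the epididymal transcripts were highest, 0 members were called in either direction by limma (0.985% of all genes lower and 4.61% higher), and 22 of the 29 differences were still below 0.

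The negative sign varied with brightness. Of the 29 genes, 17 had a mean log2 signal of 2 or more, and their median difference was -0.39 for the 9 between 2 and 4 and -0.46 for the 8 above 4. All tested genes in the same bands had medians of -0.36 and -0.44. Among the 7 members between 0 and 2 the median was -0.44, where all tested genes in that band had -0.19. The 2 members between -2 and 0 had a median of 0.29 against 0.04 for all genes, and the 3 dimmest had 0.08 against 0.33. Of all tested genes, 40.8% were called lower in the brightest band, 30.8% between 2 and 4 and 17.8% between 0 and 2. The members called lower in these bands were 2 of 8 (Spata1 and Spata4), 1 of 9 (Tex22) and 2 of 7 (Spata17 and Tex9).

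**Figure D2:**
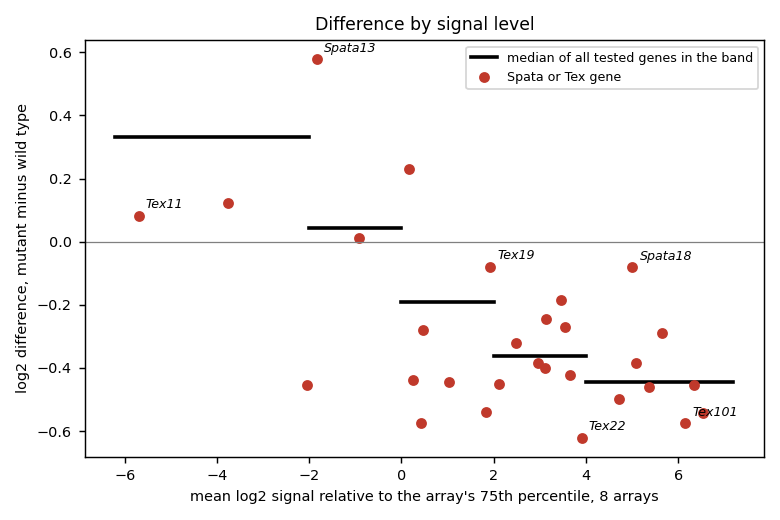
Log2 difference, mutant minus wild type, of each of the 29 genes (points) against its mean log2 signal over 8 arrays, with the median of all tested genes in 5 signal bands (horizontal lines). The lines step down as the signal increases, and 7 of the 8 brightest members lie between -0.57 and -0.29.

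Genes of spermatids and sperm made up the largest role group, the roles having been set with earlier results of these data known. All 13 were tested, 4 fell, 0 rose and 9 did not pass, and their median difference was -0.45. All but Spata17 had a mean log2 signal of 2 or more, where 30.8% (2 to 4) and 40.8% (above 4) of all tested genes were called lower. Tex22 had levels of 3.73, 3.90, 3.60 and 3.16 on mutant arrays 1 to 4, against 4.18, 4.30, 4.33 and 4.07 on wild-type arrays 1 to 4. The genotypes did not overlap, and mutant replicate 4 was the lowest. The signal was 1.54-fold lower (log2 difference -0.62, SE 0.17, limma adjusted p = 0.0223). With quantile normalization the difference was -0.31 (adjusted p = 0.137). Spata4 had 6.13, 6.34, 6.26 and 5.77 in the mutant and 6.51, 6.58, 6.69 and 6.54 in wild type. It fell by 0.45 (log2, SE 0.15, adjusted p = 0.0416), and its other probe, which shares the 40 bases in capitals above and is therefore no separate measurement of the transcript, gave -0.50 (adjusted p = 0.0489 over all probes). Neither quantile normalization nor cyclic loess kept this fall: Spata4 gave -0.036 with the former and 0.020 with the latter. Spata1 had 5.18, 5.42, 5.18 and 4.80 in the mutant and 5.54, 5.77, 5.69 and 5.42 in wild type. All 4 mutant values were at or below the lowest wild-type value, and Spata1 fell by 0.46 (log2, SE 0.16, adjusted p = 0.0488), just inside the threshold. Its second probe lay near background, at -5.05 in the mutant and -5.06 in wild type, and differed by 0.008 (adjusted p = 0.984). Spata1 gave -0.098 with quantile normalization.

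Spata17 encodes a protein with IQ motifs, which bind calmodulin. Its representative probe had levels of 0.51, 0.24, -0.21 and 0.03 in the mutant and 0.58, 0.84, 0.79 and 0.67 in wild type. Spata17 fell by 0.58 on the log2 scale with this probe (SE 0.17, limma adjusted p = 0.0276). It was the only member lower with quantile normalization as well (-0.54, adjusted p = 0.0462). The fall did not pass with cyclic loess (-0.51, adjusted p = 0.059), normexp (-0.47, adjusted p = 0.061) or spike-in scaling (-0.63, adjusted p = 0.054). The probe A_51_P360040 fell too, by 0.54 (log2, adjusted p = 0.0457), at -1.14, -0.76, -0.97 and -0.77 in the mutant against -0.65, -0.51, -0.40 and 0.08 in wild type. The embryo-clone probe went the other way. It had -3.83, -3.52, -3.17 and -3.64 in the mutant and -4.49, -5.13, -4.93 and -4.46 in wild type, a rise of 1.21 (adjusted p = 0.00390). In wild type, 3 of the 4 arrays had this probe well above background. None of the 3 probes overlapped between the genotypes, and Spata17 was the only member with called probes of both signs. The transcript that the embryo-clone probe detects in testis was not identified.

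The other sperm genes did not pass the test. Spata19, a mitochondrial protein of spermatids, had 6.69, 6.53, 6.27 and 5.60 in the mutant and 7.10, 7.08, 7.05 and 6.04 in wild type. The fourth array of each genotype was its lowest, and the ranges overlapped through it. The difference was -0.54 (SE 0.30, adjusted p = 0.176), and -0.80 without wild-type replicate 4 (adjusted p = 0.0340). Tex101, a membrane-anchored protein of germ cells that mouse sperm need to enter the oviduct, had 5.30, 6.39, 6.54 and 5.21 in the mutant against 6.29, 6.61, 6.70 and 6.14 in wild type. Mutant arrays 2 and 3 lay within the wild-type range, and arrays 1 and 4 lay well below it. The difference of -0.57 (SE 0.31, adjusted p = 0.172) became 0.029 without mutant replicates 1 and 4. Spata6, needed for the connecting piece between sperm head and tail, gave -0.32 with its representative probe (adjusted p = 0.223), at 1.88, 2.44, 2.20 and 2.78 in the mutant and 2.46, 2.51, 2.79 and 2.83 in wild type. Another probe of the same RefSeq transcript, A_52_P329994, did not overlap, at 1.72, 2.02, 2.00 and 1.93 in the mutant against 2.26, 2.41, 2.56 and 2.54 in wild type. That probe fell by 0.53 (log2, adjusted p = 0.0183), so the call for Spata6 depends on the probe. Tex21 lay just outside the threshold (-0.39, adjusted p = 0.0509), and neither Tex21 nor Spata20 (-0.29) or Spata21 (-0.39) overlapped between the genotypes. Spata9, Spata3 and Spata18 gave -0.45, -0.24 and -0.081. The interval of Spata18, a gene of mitochondrial quality control, ran from -0.60 to 0.44 (95% confidence), which leaves a change of either sign undecided.

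**Figure D3:**
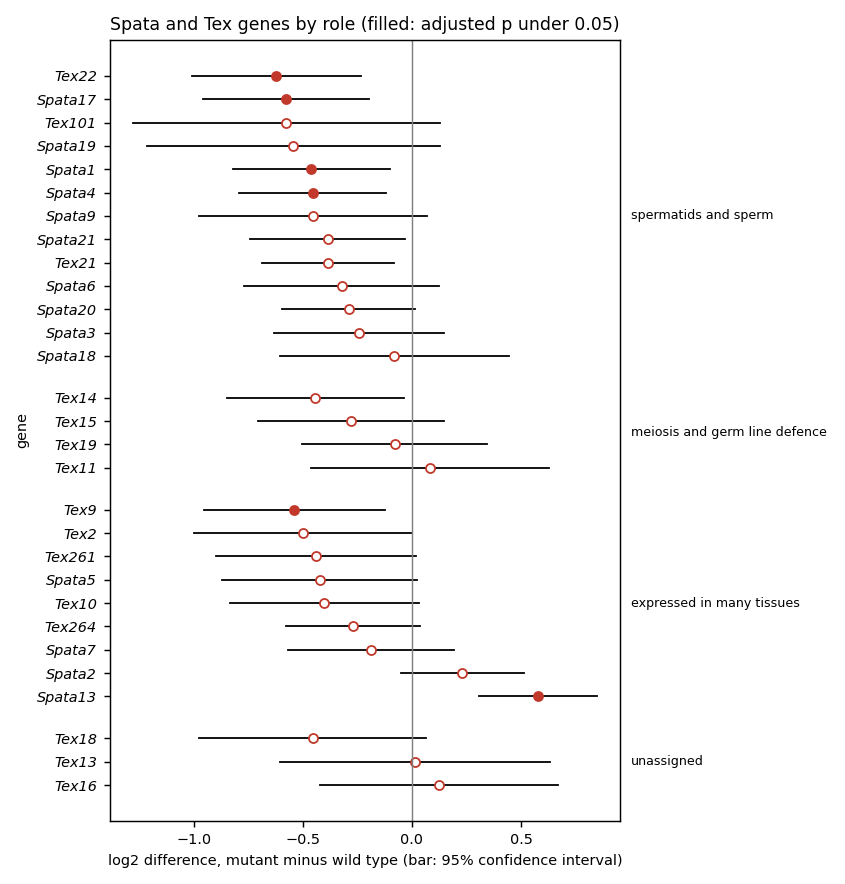
Log2 difference, mutant minus wild type, of the 29 tested genes (points) with 95% confidence intervals (bars), grouped by role, with filled points at an adjusted p under 0.05. Spermatid and sperm genes, 13 of the 29, hold 4 of the 5 lower calls, and Spata13 is the only higher one. All of the 13 but Spata17 lie in signal bands where 30.8% or 40.8% of all tested genes were called lower.

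The genes of meiosis and germ line defence were Tex11, Tex14, Tex15 and Tex19, and 0 of the 4 passed the limma test (at an unadjusted p under 0.05, Tex14 was lower). The median difference of these 4 was -0.18. By comparison, 13.2% of all tested genes were called lower and 22.3% higher. Tex14, required for the bridges that join dividing germ cells, had 0.61, 1.08, 1.03 and 0.56 in the mutant and 1.41, 1.44, 1.29 and 0.90 in wild type. The lowest wild-type array lay inside the mutant range, and the difference was -0.44 (SE 0.18, adjusted p = 0.0811). Tex15, which acts in meiotic break repair and in transposon silencing, had -0.17, 0.58, 0.55 and 0.39 in the mutant against 0.38, 0.79, 0.74 and 0.55 in wild type (difference -0.28, adjusted p = 0.263). The probe named Tex19 in the array files matches the gene now called Tex19.1 in RefSeq, a repressor of transposons in germ cells and placenta. It had 1.44, 1.85, 2.20 and 2.02 in the mutant and 1.80, 1.79, 1.96 and 2.26 in wild type, with overlapping ranges and a difference of -0.079 (95% interval -0.50 to 0.34). Tex11, an X-linked gene of meiotic crossing-over, was well above background on 3 mutant and 1 wild-type arrays, with most values near the floor of -6.12. The 95% interval of its difference ran from -0.46 to 0.63. No probe carried the name Spata22, which was not analysed here.

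The X-linked members Tex11, Tex13 and Tex16 gave differences of 0.08, 0.01 and 0.12, and none passed. The array's Tex13 matches the gene now called Tex13b. All 830 tested X-linked genes had a median difference of 0.45, against 0.02 for the other genes, with 372 called higher and 34 lower.

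Genes expressed in many tissues held the only rise. Of these 10 genes 9 were tested, 1 rose, 1 fell and 7 did not pass. The shares over all tested genes were 22.3% higher and 13.2% lower. Spata13, a guanine nucleotide exchange factor, had levels of -1.44, -1.72, -1.56 and -1.45 in the mutant, against -2.16, -2.12, -2.12 and -2.08 in wild type. All 4 mutant arrays were above all 4 wild-type arrays, and the signal was 1.49-fold higher (log2 difference 0.58, SE 0.12, adjusted p = 0.00817). The rise passed the test with quantile normalization (0.44), cyclic loess (0.46) and median scaling (0.36), and did not pass with normexp (0.32, adjusted p = 0.110) or without mutant replicates 1 and 4 (0.48, adjusted p = 0.0763). Its probe was designed on a cDNA clone from bone marrow macrophages. Of 9 tested macrophage markers, 7 were called higher. Their summed scaled signal was 10.4, 4.78, 6.93 and 8.19 on mutant arrays 1 to 4. Spata13 had the same order there, with arrays 1 and 4 nearly equal (-1.44 and -1.45). On wild-type arrays 1 to 4 the sum was 4.30, 3.89, 3.75 and 4.93. Spata13 did not have that order in wild type, being lowest on array 1. The part of the macrophage markers in the Spata13 difference, and that of the Sertoli genes above, was not tested. In RNA of whole testicular cells, more cells of a type and more RNA per cell cannot be told apart.

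Tex9 had 1.67, 1.55, 1.71 and 1.36 in the mutant and 2.17, 2.37, 2.30 and 1.61 in wild type. Wild-type replicate 4 alone lay within the mutant range. Tex9 fell by 0.54 on the log2 scale (SE 0.18, adjusted p = 0.0465). Without wild-type replicate 4 the difference was -0.71 (adjusted p = 0.00970), but the call ended when any other single array was left out, with quantile normalization (-0.38, adjusted p = 0.140) and with cyclic loess (-0.34, adjusted p = 0.173). Spata5, an ATPase of ribosome assembly, had 3.15, 3.61, 3.52 and 3.46 in the mutant and 3.63, 3.65, 3.74 and 4.41 in wild type. The groups did not overlap, yet the difference of -0.42 did not pass (SE 0.20, adjusted p = 0.119), and the wild-type spread came mostly from replicate 4. Spata2, an adaptor that joins the deubiquitinase CYLD to the linear ubiquitin ligase, had 0.26, 0.17, 0.33 and 0.37 in the mutant against -0.15, 0.05, 0.17 and 0.12 in wild type, and gave 0.23 (adjusted p = 0.172) with its brighter probe and -0.037 with the other. Tex264, a receptor for autophagy of the endoplasmic reticulum, had 3.65, 3.46, 3.31 and 3.23 in the mutant against 3.65, 3.70, 3.81 and 3.57 in wild type, with overlap at mutant replicate 1. Its probes gave -0.27 and -0.25, the same direction, and neither passed. Spata7, a protein of photoreceptor cilia, gave -0.19 with its brighter probe (limma adjusted p = 0.400). Its other probe gave -0.96 (adjusted p = 0.0562 over all probes), so the size of the Spata7 difference depends on the probe. Tex2, an endoplasmic reticulum lipid-transfer protein, gave -0.50 with its brighter probe (adjusted p = 0.105) and -0.39 with the other (adjusted p = 0.0866 over all probes).

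Tex10, part of a nuclear complex of ribosome assembly, and Tex261, a membrane protein of the secretory pathway, had probes of opposite sign. The brightest Tex10 probe had 2.64, 3.06, 3.02 and 2.96 in the mutant and 2.97, 3.18, 3.32 and 3.81 in wild type and gave -0.40 (adjusted p = 0.128). The probe A_52_P221696 had -0.71, -0.55, -0.61 and -0.42 in the mutant against -2.07, -1.81, -0.82 and -0.53 in wild type. Wild-type arrays 1 and 2 were far below arrays 3 and 4, and the difference of 0.74 did not pass (adjusted p = 0.0988). The embryo-clone probe A_51_P102090 was well above background on all 4 mutant arrays and on 0 wild-type arrays. It averaged -5.40 in the mutant and -6.00 in wild type, where 3 of the 4 values were at the floor. This probe entered the test only through the mutant arrays, so its call is not used as a result. Tex261 gave -0.44 with the brightest of its probes (-0.10, 0.00, -0.10 and 0.32 in the mutant, 0.49, 0.12, 0.26 and 1.01 in wild type), and 0.20 and 0.33 with the other two, none of them passing.

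**Figure D4:**
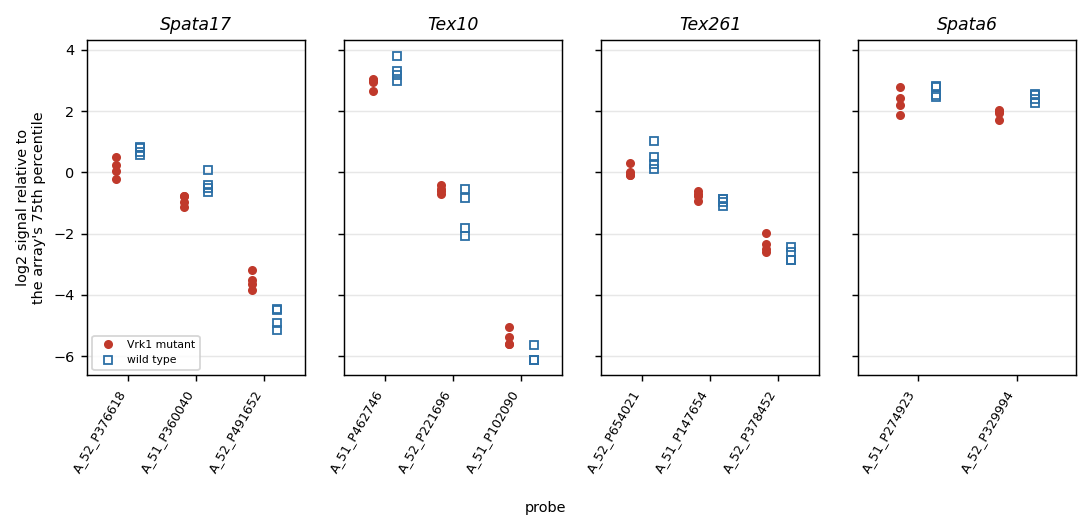
Scaled log2 signal (0 is the array's 75th percentile) of every tested probe of Spata17, Tex10, Tex261 and Spata6, with 4 mutant (filled circles) and 4 wild-type arrays (open squares) for each probe. For Spata17 the mutant points lie below wild type for 2 probes and above it for the dimmest, A_52_P491652.

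Of the 12 genes with 2 or more tested probes, 5 had differences of both signs (Spata1, Spata17, Spata2, Tex10 and Tex261). In the fit over all probes, 9 of the 44 member probes were called, 6 lower and 3 higher, which is 20.5%, including the dim Tex10 probe that passed the filter through the mutant arrays alone, where 32.1% of all 33717 probes were called.

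Over all tested genes, arrays correlated at 0.983 to 0.995 within the mutant and at 0.969 to 0.995 within wild type, and the members' levels varied from array to array. Measured against the wild-type mean of each gene, the median deviation of the 29 genes was -0.43, -0.17, -0.37 and -0.40 on mutant arrays 1 to 4, against -0.066, 0.021, 0.11 and -0.067 on wild-type arrays 1 to 4. For 11 members, mutant replicates 1 and 4 both lay below replicates 2 and 3 (37.9% of the members, 29.8% of all tested genes), and the reverse held for Spata13 alone (3.45% of the members, 17.0% of all tested genes). The 11 were Tex10, Tex11, Tex13, Tex14, Tex15, Tex16, Tex18, Tex101, Spata1, Spata4 and Spata5. Tex18 had -2.87 and -2.51 on mutant arrays 1 and 4, -1.81 and -1.95 on arrays 2 and 3, and -1.98 to -1.60 in wild type. Tex16 had -4.44 and -3.77 on mutant arrays 1 and 4, -3.35 and -3.23 on arrays 2 and 3, against -3.89 to -3.76 in wild type, so that the mutant arrays lay on both sides of the wild-type range. Tex13 had -1.55 and -1.12 on mutant arrays 1 and 4, -0.59 and -0.43 on arrays 2 and 3, against -1.50 to -0.64 in wild type. Markers of meiotic prophase followed the same order as the 11 members. The 9 tested genes summed to 41.5, 59.1, 59.2 and 41.3 on mutant arrays 1 to 4, and 4 of them were called lower. In wild type the sum was between 66.7 and 77.1. Among these genes Msh4 did not follow the order, at -1.31, -2.30, -2.51 and -2.21. The order was not particular to meiotic prophase. Summed markers of late spermatocytes (400.2, 483.3, 437.7 and 368.8) had it too, and those of round and elongating spermatids did not. The sum for undifferentiated spermatogonia (6.41, 8.60, 8.76 and 6.29) also had it, but Id4 weighed most in that sum. Id4 had 1.78, 2.48, 2.50 and 1.56 on mutant arrays 1 to 4. In that list Sall4 followed the order as well, and no other gene did. The epididymal transcripts given above were highest on mutant arrays 1 and 4. Their part in these values was not tested.

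**Figure D5:**
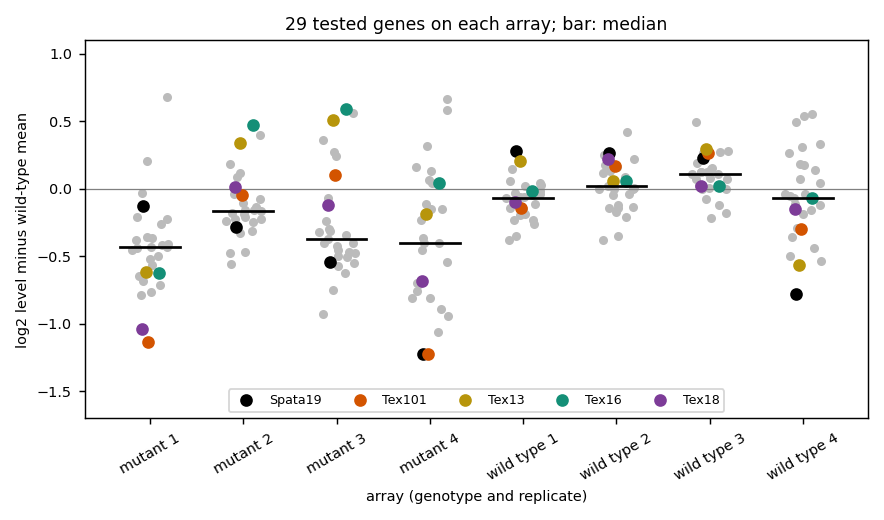
Log2 level of each of the 29 genes minus its wild-type mean (points) on each array, with the median of the genes (black bars) and 5 genes in colour. Tex101, Tex13, Tex16 and Tex18 lie lower on mutant arrays 1 and 4 than on mutant arrays 2 and 3, and Spata19 is lowest on the fourth array of both genotypes.

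Promoter sequences from RefSeq (GRCm38.p6, a window of 300 bases around the start) were found for 26 of the 30 genes. The cyclic AMP response element TGACGTCA, searched on both strands, lay in that window of Spata7 only, which is 1 of 31 member promoters (3.23%), against 1.79% of all 32851 promoters. The shorter TGACGT, which the longer motif contains, was found in 4 of the 31 (12.9%, against 7.51%), those of Spata5, Spata6, Spata7 and Spata18. None of these 4 genes passed the test with its representative probe.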

How the data were processed

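Total RNA was labelled with Cy3 and hybridised to single-colour arrays, per the labels' protocols, and read with Agilent Feature Extraction 9.5.3.1, per the submitters' processing notes. The deposited intensity is the processed signal, background-subtracted and detrended within each array and not scaled between arrays, per the file headers. The deposited value table equalled it for all 45018 features within a relative tolerance of 1e-04. No feature was saturated.

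Signals were expressed as multiples of the array's 75th percentile (43379 non-control features), lower ones were set to a floor of 0.01437, and log2 was taken. Outlier spots were left out, which removed wild-type replicate 1 for Spata3, and repeated spots of a probe were averaged. Probes needed to be well above background on at least 4 arrays and to have at least 3 values per genotype. Where a gene name had several passing probes, the one with the highest mean stood for it. The test was limma 3.58.1 (R 4.3.3) on 23349 genes (genotype only, two-sided, Benjamini-Hochberg over all genes). Other probes come from a fit over all 33717 passing probes. The procedure was tested on simulated data. The number of arrays limits the precision.

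Members were picked by the name rule, and that rule, the roles and the marker lists were set with earlier results of these data known. All members may be named. Values on every array are given for called genes without overlap, genes whose probes disagree and 12 listed genes, of which Spata22 was not analysed here. Tex9, Tex13, Tex16 and Tex18 lie outside this rule and were added after their values were seen. Of 46 probes, 33 matched a RefSeq gene by accession, and the others keep the name in the array files. Marker lists beyond the Sertoli, late spermatocyte, meiotic prophase and macrophage lists gave the following counts of called genes. Undifferentiated spermatogonia had 7 of 11 higher, round spermatids 5 of 10 lower and elongating spermatids 1 of 12 lower. Leydig cells had 5 of 9 higher, peritubular and vascular cells 2 of 10 higher and epididymal epithelium 3 of 4 higher. Elovl3, counted among these 3, was well above background on 4 mutant and 0 wild-type arrays. It entered the test only through the mutant arrays, so its call is not used as a result.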

Additional observations from a re-analysis of the deposited data

Results flagged for a closer look

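In 3 of the 57 groups of 4 arrays examined, 1 array stood further from the rest than Dixon's critical value allows, where chance gives about 1 in 20. Each was wild-type replicate 4. Spata19 was at 6.04 there and at 7.05 to 7.10 on the other wild-type arrays. Spata21 was at 5.45, against 5.20 to 5.22, and Spata5 at 4.41, against 3.63 to 3.74. The array was thus low for 1 gene and high for the other two.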

How the results depend on the processing

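The number of lower members was 5, and was 18 with median scaling, 1 with quantile normalization, 0 with cyclic loess (9.30% of all genes lower), 2 with spike-in scaling (9.08%), 1 with normexp, 3 with all probes in 1 fit (12.4%), 16 with array weights (26.8%) and 0 without mutant replicates 1 and 4. Leaving out 1 array at a time gave 0 to 8. The number of higher members was 1, and 0 with normexp and without mutant replicates 1 and 4. It was 1 each time 1 array was left out. The median difference of -0.39 was -0.60 with median scaling, -0.14 with quantile normalization and -0.11 with cyclic loess, and ran from -0.43 to -0.30 when 1 array was left out. Over all genes, 62.7% of calls were higher, 32.9% with median scaling and 41.1% with normexp. Spata4 changed sign with cyclic loess (0.020, adjusted p = 0.910). Among the 20 alternatives, the call ended in 14 for Spata1, 14 for Tex9, 11 for Spata4 besides cyclic loess, 8 for Spata17, 6 for Tex22 and 2 for Spata13. With the replicate number as a block, 13 members were lower and 1 higher (19.7% and 27.6% of all genes). Those added to the lower members were Spata19, Spata21, Spata9, Tex101, Tex14, Tex2, Tex21 and Tex261. The numbers were not taken as pairs, since deviations from the group means correlated at 0.28, 0.24, 0.079 and 0.59 for numbers 1 to 4. The numbers also match the array position on the slide. Every sample correlated best with its own number except wild-type replicate 3, which did so with mutant replicate 2 (0.19), a hint from the data and not from the design. The slide could not be used as a block, since each genotype had its own. The causes of these shifts were not tested. Dim probes near the floor, such as that of Tex11, limit what could be seen.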
